A study of Mus musculus with 2 samples.

Results

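The steroid-making genes described here were the array probes named for Star, Cyp11a1, Cyp17a1, Hsd17b3, Akr1b7, Fdx1, Insl3 or Lhcgr, matched by gene name. The rule uses no measured value, but the genes were picked with earlier results of these data known. Of these 8 genes 7 had a probe, with 10 probes in all, among 15208 non-control probes on the array. Insl3 named no probe. Lhcgr was not well above background on either array, which left 6 genes and 9 probes to compare. The busulphan preparation came from adult male Swiss mice aged 3 months that had been given 25 mg/kg busulphan, an alkylating drug widely used to deplete germ cells, 1 month earlier. The control preparation came from untreated males of the same strain and age. Both were labelled as isolated Sertoli cells, collected without culture as the material that the finer of a pair of strainers held back after enzymatic digestion of the testis. Each was hybridised to 1 single-colour (Cy3) array, and the number of animals behind each preparation is not given in the sources used here. With n = 1 per group no difference has a replicate check, and every direction below compares these 2 libraries only.

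Leydig cells lie between the seminiferous tubules and make testosterone when luteinising hormone reaches its receptor, Lhcgr. The signal raises cyclic AMP, and Star then carries cholesterol to the inner mitochondrial membrane, where Cyp11a1 cleaves its side chain with electrons passed on by the ferredoxin Fdx1. Cyp17a1 turns the product into androgen precursors and Hsd17b3 reduces these to testosterone. Akr1b7 is an aldo-keto reductase that removes a toxic aldehyde left by side chain cleavage, known from the mouse adrenal gland and vas deferens. Insl3 is a peptide hormone of Leydig cells that guides the descent of the testis.

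The members did not share a direction. With the scaling given below, Star and Akr1b7 were more than 10-fold brighter in the busulphan library and Hsd17b3 was 3.80-fold dimmer. Cyp11a1 and Cyp17a1 lay within 2-fold, and the probes of Fdx1 pointed opposite ways. Signals below are the scanner software's background-subtracted intensities, each with that software's own spot error. Log2 ratios are busulphan over control after each array was divided by its 75th percentile, and the size rule was 2-fold, a log2 ratio of 1 either way. These sizes depend on the processing. Under the alternatives described below, the log2 ratio fell as low as 2.66 for Star (2287) and 2.005 for Akr1b7, both under 10-fold. That of Hsd17b3 came as close to level as -0.87. The software error of a log2 ratio was about 0.20 for bright spots, and it does not cover differences between preparations.

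The array carried oligonucleotides of 60 bases, and where each lies decides which transcript part it reads. Of the 10 probes, 4 covered a stretch of the mouse mm9 build longer than the probe itself, so these cross an intron and join exons. They were both Cyp11a1 probes and those of Cyp17a1 and Hsd17b3. In 4 probes, of Lhcgr, Fdx1 and Star (both), each of the 3 reading frames held a stop codon, so these are not wholly coding. The sequences below are shown because they are the intron-crossing probes of the members that were dimmer or within 2-fold, with the open-frame Fdx1 probe that disagreed with its partner. They are printed along the transcript strand, with the first base in the transcript in brackets.
Cyp11a1 (1197), chr9:57873365-57873902, plus strand: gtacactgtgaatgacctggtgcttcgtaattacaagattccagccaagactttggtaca
Cyp11a1 (1428), chr9:57874074-57874544, plus strand: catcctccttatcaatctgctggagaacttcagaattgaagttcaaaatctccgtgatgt
Fdx1 (429), chr9:51756711-51756770, minus strand: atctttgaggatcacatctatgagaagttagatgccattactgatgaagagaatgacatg
Cyp17a1 (1247), chr19:46742594-46743207, minus strand: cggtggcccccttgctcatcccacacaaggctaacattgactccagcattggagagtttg
Hsd17b3 (865), chr13:64159943-64160741, minus strand: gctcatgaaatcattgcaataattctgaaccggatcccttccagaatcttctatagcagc

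At the head of the pathway, the LH receptor could not be measured. The Lhcgr probe (NM_013582, chr17:89141300-89141359 of mm9, minus strand) gave a processed signal of 1.40 ± 1.37 in the busulphan library, against 1.61 ± 1.59 in the control library. Both values lay under the lowest signal of any probe well above background, which was 6.26 on the busulphan array and 7.50 on the control array. No ratio was taken, and a low level of the transcript in either library was not detectable.

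Star, the cholesterol carrier, stood far higher in the busulphan library by both of its probes. The probe at transcript base 2287 (NM_011485, chr8:26924735-26924794, plus strand) gave 2043 ± 204 in the busulphan library, against 202 ± 20.3 in the control library. This was a log2 ratio of 3.55 (software error 0.20), or 11.7-fold higher. The probe at base 3012 (chr8:26925460-26925519, plus strand) gave 1003 ± 100.3 in the busulphan library, against 87.6 ± 8.93 in the control library, 13.2-fold higher. The probes differed by 0.18 ± 0.29 in log2 ratio, which is within the software error. Across the pixels of the first spot the mean was 2080 ± 101 (SD, 59 pixels) on the busulphan array, against 224 ± 30.5 (SD, 66 pixels) on the control array, over local backgrounds of 17 and 18. Of all genes compared, 2.42% had a ratio as high as that of the first probe.

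Cyp11a1, the side chain cleavage enzyme that uses the cholesterol Star delivers, was nearly level between the libraries. Its probe at base 1197 (NM_019779) gave 63.3 ± 6.49 in the busulphan library and 67.8 ± 6.98 in the control library, a log2 ratio of 0.11 ± 0.21. Its probe at base 1428 gave 60.04 ± 6.16 in the busulphan library and 50.7 ± 5.33 in the control library, a log2 ratio of 0.45 ± 0.21. Both exon-joining probes thus lay within 2-fold, and they differed from each other by 0.34 ± 0.30. The ratio of Star (2287) exceeded that of Cyp11a1 (1197) by 3.44 ± 0.29 on the log2 scale, a 10.8-fold difference that no scaling between the arrays by a constant can alter.

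Fdx1, the ferredoxin that feeds electrons to Cyp11a1 and that other mitochondria also use, gave opposite directions by probe. The open-frame probe at base 429 (NM_007996) had a signal of 1749 ± 175 in the busulphan library, against 3670 ± 367 in the control library, a log2 ratio of -0.86 ± 0.20. The probe at base 702 (chr9:51751511-51751570, minus strand), whose frames all hold stops, had 2664 ± 266 in the busulphan library, against 1226 ± 123 in the control library, 2.51-fold higher. The ratio of the probe at 702 exceeded that of the probe at 429 by 2.19 ± 0.29, or 4.56-fold. The brighter probe, at 429, stands for the gene in counts, so Fdx1 counts as within 2-fold and no direction can be given for the gene. Scaled to spike-in controls, the log2 ratio was -1.74 at 429 and 0.44 at 702, so that both size calls change while the gap between the probes stays.

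Cyp17a1, which makes the androgen precursors, had 414 ± 41.5 in the busulphan library and 566 ± 56.6 in the control library (NM_007809). Its log2 ratio of -0.24 ± 0.20 lay within 2-fold, although it reached -1.12 when arrays were scaled to spike-in controls. Hsd17b3, the last step to testosterone, was the member with the lowest ratio. Its signal (NM_008291) was 24.3 ± 2.78 in the busulphan library, against 107 ± 10.8 in the control library, a log2 ratio of -1.93 ± 0.22. On the busulphan array the spot mean of 49.5 ± 10.9 (SD, 62 pixels) stood over a local background of 18. With normexp background correction, which shrinks the ratios of dim spots, Hsd17b3 was at -0.87 and no longer past 2-fold. Of all genes compared, 18.5% had a ratio below that of Hsd17b3.

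Akr1b7 had the highest ratio of the members, at low signals. Its probe (NM_009731, chr6:34372905-34372964, plus strand) gave 186 ± 18.6 in the busulphan library, against 12.03 ± 2.02 in the control library. This was a log2 ratio of 4.16 ± 0.28, or 17.8-fold higher, and 0.932% of all genes had a ratio as high. The control spot had a mean of 38.3 ± 10.8 (SD, 61 pixels) over a local background of 19, and with normexp the log2 ratio was 2.005. The ratio of Akr1b7 exceeded that of Star (2287) by 0.61 ± 0.35, and that of Hsd17b3 by 6.08 ± 0.36.

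**Figure D1:**
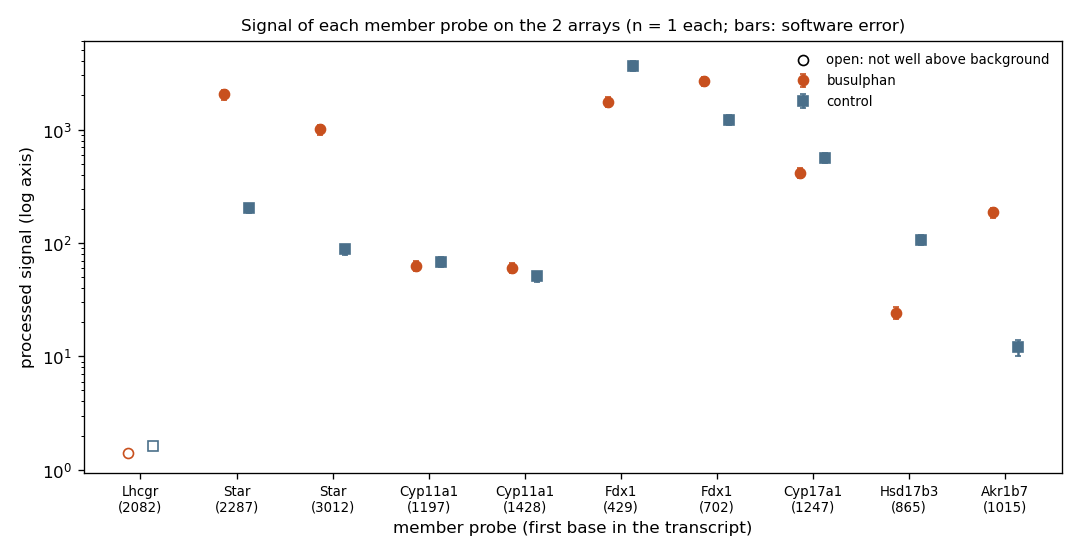
Processed signal (log axis) of each of the 10 member probes in the busulphan and control libraries, 1 array each, with the software's spot error as bars and open symbols without bars for spots not well above background. Star and Akr1b7 stand higher in busulphan, Hsd17b3 stands lower, and the Fdx1 probes cross over.

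By the brightest probe of each gene, 2 of 6 members passed 2-fold upward in the busulphan library (33.3%), beside 31.3% of all 9438 genes compared. Downward, 1 of 6 passed (16.7%), beside 29.5% of all genes. With spike-in scaling 1524 of all genes passed upward and 4381 downward, and of the members 2 and 3. With the main scaling both shares of the members are near or under the background. For only 6 members, the count called is no result about them under either scaling. Their median log2 ratio was -0.07, beside 0.07 for all genes, and the members spanned 6.08 log2 units. The order of the ratios from high to low was Akr1b7, Star, Cyp11a1, Cyp17a1, Fdx1 and Hsd17b3. Akr1b7 and Star differed by less than 2 software errors, as did Cyp11a1 (1197) and Cyp17a1, at 0.35 ± 0.29. Scaling to 6 spike-in control probes put every log2 ratio 0.88 lower, and the median of all genes at -0.81. Relative to that shift the order and gaps of the members stay as given.

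**Figure D2:**
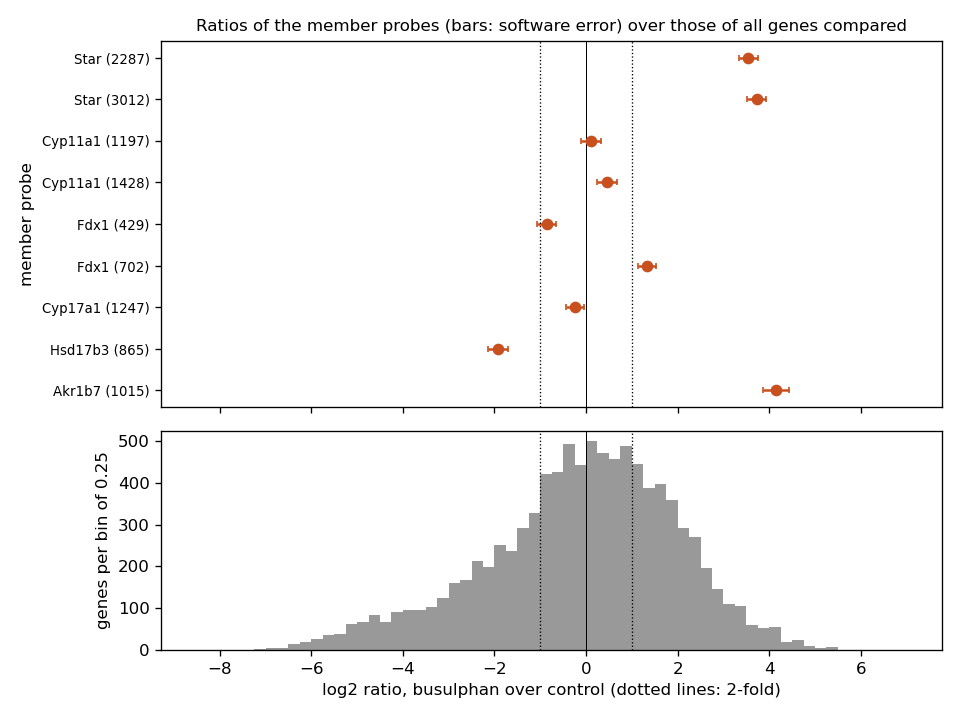
Log2 ratio, busulphan over control, of the 9 member probes compared (upper panel, bars for the software error), above the number of genes per bin of 0.25 among all 9438 genes compared (lower panel). Star and Akr1b7 lie in the upper tail, Hsd17b3 lies left of the 2-fold line, Fdx1 (702) lies just right of it at 1.33, and the other 4 probes lie within 2-fold.

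**Figure D3:**
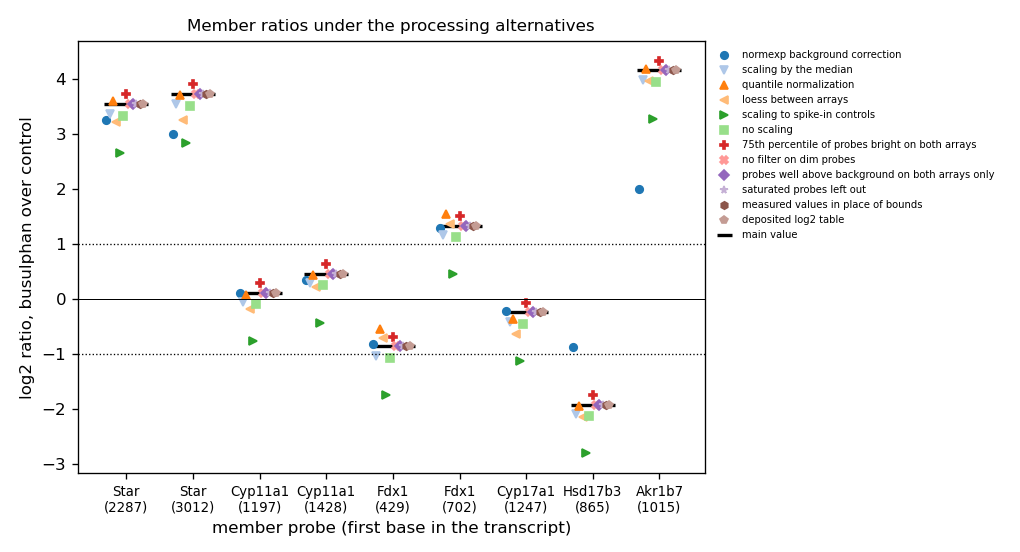
Log2 ratio, busulphan over control, of each member probe under the main processing (black bar) and 12 alternatives (symbols). Star and Akr1b7 stay above the 2-fold line under each, the spike-in scaling is lowest for most probes, and normexp brings Hsd17b3 to -0.87. Alternatives for dim probes, saturated spots and bounds could not move these probes.

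Among the other enzymes and electron donors that make steroid hormones, the shares past 2-fold were close to those of all genes. Of 21 genes listed, 18 were on the array and 17 were compared, of which 6 passed 2-fold on the higher side, 5 passed it on the lower side and 6 passed neither. These were 35.3% higher and 29.4% lower, beside 31.3% and 29.5% of all genes, and their median log2 ratio was 0.022. The Leydig forms of the enzyme that follows Cyp11a1 were close to level, as Cyp11a1 itself was. Hsd3b1 had signals of 229 in the busulphan library and 190 in the control library (log2 ratio 0.48), and Hsd3b6 had 38.2 and 61.9 (log2 ratio -0.49). Hsd3b2 was at -0.51 and its other probe at -0.32. Hsd3b4, known from mouse kidney, was 15.2-fold lower (-3.93, and -2.46 with normexp), and Hsd3b5, known from mouse liver, at least 10.5-fold lower. Genes of the Hsd3b family are close copies, and whether their probes share signal was not tested.

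Of the partners that pass electrons, Fdxr, Cyb5a and Cyb5r3 were past 2-fold higher, Por and Cyb5b were not, and Fdx1 had no direction. Fdxr, the reductase that charges Fdx1, had 4878 in the busulphan library, against 1647 in the control library, a log2 ratio of 1.78. Cyb5a, the cytochrome that aids the lyase step of Cyp17a1, was at 1.83 and its reductase Cyb5r3 at 1.56, with another Cyb5r3 probe at 0.68. Under spike-in scaling Fdxr, Cyb5a and Cyb5r3 were at 0.89, 0.95 and 0.67, within 2-fold. Por, which serves Cyp17a1, was at 0.83 and Cyb5b at -0.02.

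The 3 other 17-beta dehydrogenases of this list were past 2-fold higher, while Hsd17b2, of the next list, was lower like Hsd17b3. Hsd17b1, which makes oestradiol, had signals of 238 in the busulphan library and 14.7 in the control library, 18.7-fold higher (log2 ratio 4.23, and 2.28 with normexp). Hsd17b7, an enzyme of oestradiol and cholesterol synthesis, was 5.12-fold higher by one probe and at 2.47 on the log2 scale by the other. Hsd17b12, which also lengthens fatty acids, was 5.03-fold higher. Cyp19a1, the aromatase that turns androgens into oestrogens, was 6.49-fold lower at signals of 11.4 in the busulphan library and 85.8 in the control library, and within 2-fold with normexp (-0.86). The steroid reductase Srd5a1 was at 0.02. Srd5a2 and the adrenal enzyme Cyp21a1 were not well above background in the busulphan library, and were at least 3.58-fold and 2.18-fold lower. With normexp, Srd5a2, Cyp21a1 and Hsd3b5 lay within 2-fold.

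Enzymes that oxidise, convert or conjugate steroids had 6 of 11 compared past 2-fold on the higher side, 1 on the lower side and 4 between. These were 54.5% higher and 9.09% lower, beside 31.3% and 29.5% of all genes, around a median log2 ratio of 1.34. The highest were Hsd17b11 (2.89, with its other probe at 0.052 and a median over probes of 1.47), Hsd17b10 (2.05) and Sult1e1, the oestrogen sulphotransferase (1.76, and 0.87 with spike-in scaling). Hsd17b2, which turns testosterone back into its precursor, was the lowest, at signals of 11.02 in the busulphan library and 131 in the control library (-3.36, and -1.22 with normexp). Hsd17b4, between these and named outside the rule for naming genes, was at 0.43. Akr1c6 and Akr1c20 were not well above background in the busulphan library, with ratios of at most -0.62 and -0.38.

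Of 26 genes that supply cholesterol to the pathway, 14 passed 2-fold upward, 7 downward and 5 neither way, and the median log2 ratio was 1.55. The higher share was 53.8%, beside 31.3% of all genes, and the lower share was 26.9%, beside 29.5%. Among the highest were Acsl4, a fatty acid ligase of steroid-making cells (3.78, other probe 3.47), and the cholesterol exporter Abca1 (3.02). Among the lowest were the cholesteryl ester lipase Lipe (-4.70, other probe -6.14) and Fdft1, which makes squalene (-3.71, other probe -0.56, median over probes -2.13). Scarb1, the receptor through which Leydig cells take up lipoprotein cholesterol, and Tspo, a mitochondrial outer membrane protein, were named after their values were seen, at 1.89 and 2.86.

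**Figure D4:**
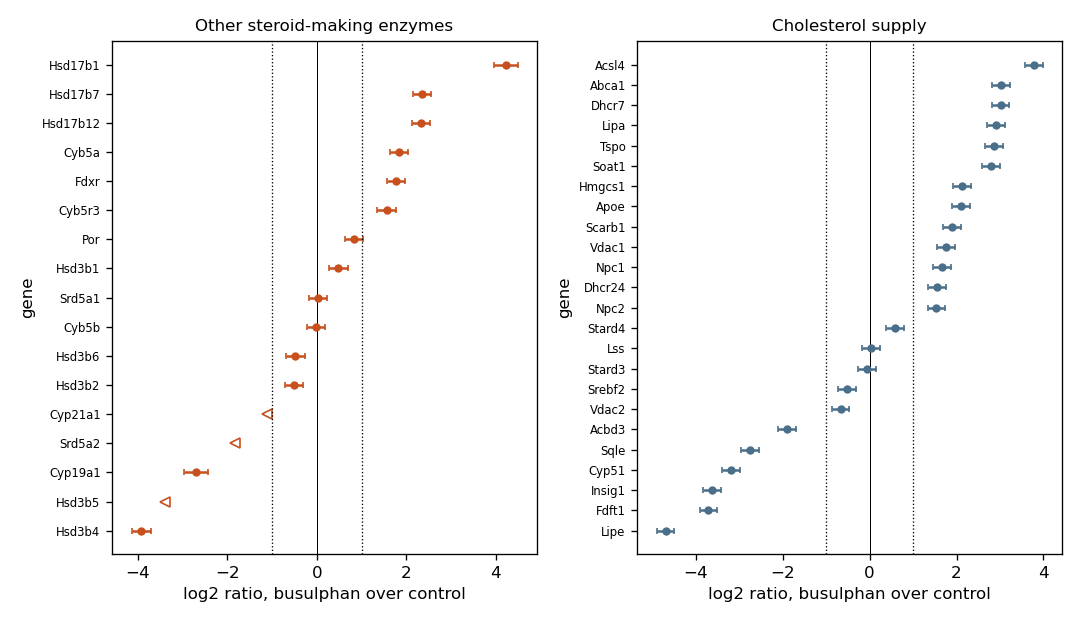
Log2 ratio, busulphan over control, of the 17 other steroid-making genes (left) and of cholesterol supply genes (right), with the software error as bars and open triangles for values that are at most the point shown. Each list runs from clearly lower to clearly higher genes, with Hsd17b1 and Acsl4 at the top.

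The next list held signalling below the LH receptor and other inputs to Leydig cells, such as hedgehog and growth factor ligands and receptors. Of 29 genes compared, 13 passed 2-fold upward, 5 downward and 11 neither way, around a median log2 ratio of 0.39. The shares were 44.8% higher and 17.2% lower, beside 31.3% and 29.5% of all genes. Highest were Dhh, the Sertoli cell ligand that directs Leydig cell differentiation (4.04), the phosphodiesterase Pde4b (3.60) and the adenylyl cyclase Adcy9 (3.15). The lowest were Prkar2a, a regulatory subunit of protein kinase A (-6.90), Akap1, its anchor on mitochondria (-6.04), and Crem, a cyclic AMP responsive factor abundant in spermatids (-4.12). Other probes of Prkar2a gave -0.90 and -0.66, and those of Crem ran from -5.46 to 0.95. By the median over probes Prkar2a (-0.90) and Crem (-0.69) were within 2-fold.

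Among transcription factors known to act on steroid-making genes, 17 of 27 compared passed 2-fold upward, 4 downward and 6 neither way. These were 63.0% higher and 14.8% lower, beside 31.3% and 29.5% of all genes, around a median log2 ratio of 1.53. Wt1 (3.53), Nr0b1 (3.17) and Cebpb (2.64) were highest, and the first is also a Sertoli cell marker. Dlx5 (-2.37, and -1.47 with normexp), Nr4a3 (-1.91, and -0.56 with normexp) and Lhx9 (-1.79) were lowest. Nr5a1, the nuclear receptor that activates Star and Cyp11a1, was picked after its value was seen. Its signals were 178 in the busulphan library and 38.8 in the control library (log2 ratio 2.41). Among the 6 that passed neither way were Nr5a2 (0.05), Gata4 (0.73, other probe 3.52) and Sp1 (0.92). Any part of these factors in the member ratios was not tested.

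Relatives of Akr1b7, Insl3 and Lhcgr had 4 of 10 compared past 2-fold upward and 5 downward, around a median log2 ratio of -1.10. The shares were 40% and 50%, beside 31.3% and 29.5% of all genes. The relaxin Rln1 (5.15, signals of 321 in the busulphan library and 10.4 in the control library), the FSH receptor Fshr (4.88) and the aldose reductase Akr1b3 (1.40) were highest. Rln1 was at 2.75 and Fshr at 3.49 with normexp, and Akr1b3 at 0.52 with spike-in scaling. The relaxin family members Insl6 (-4.59) and Insl5 (-3.22) and the Insl3 receptor Rxfp2 (-3.66) were lowest, of which Insl5 was at -2.33 and Rxfp2 at -1.61 with normexp. For Insl3 itself, 2 probes named for its neighbour Jak3 also list an Insl3 transcript among their accessions. They lie at chr8:74214308-74214367 and chr8:74214085-74214144 of mm9, and gave log2 ratios of -0.04 and 0.35. They are not members, and which transcript they read cannot be told apart.

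Upstream windows were read for members in the table of RefSeq promoters on GRCm38.p6, over the 250 bases before the annotated start. The 6 members found there had 7 windows, since Cyp11a1 has a pair of starts, and Star and Cyp17a1 had no entry. Searched on both strands, the letters AGGTCA, the core bound by Nr5a1 and other nuclear receptors, stood in 3 of 7 windows, and in 14.0% of all 32851 windows in the table. The full cyclic AMP element TGACGTCA stood in 0 of 7, and in 1.55% of all windows. The windows of Akr1b7 and Hsd17b3 are shown because these genes had the highest and lowest ratios, with any match in capitals. Akr1b7 held 1 match, on the reverse strand as TGACCT with its first base at position -248, and Hsd17b3 held none.
Akr1b7, chr6:34412112-34412361, plus strand: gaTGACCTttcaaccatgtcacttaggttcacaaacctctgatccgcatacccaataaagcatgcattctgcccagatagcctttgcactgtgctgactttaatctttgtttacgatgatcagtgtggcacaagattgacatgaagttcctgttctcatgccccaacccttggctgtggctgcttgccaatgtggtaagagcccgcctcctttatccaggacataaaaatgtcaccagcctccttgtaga
Hsd17b3, chr13:64089202-64089451, minus strand: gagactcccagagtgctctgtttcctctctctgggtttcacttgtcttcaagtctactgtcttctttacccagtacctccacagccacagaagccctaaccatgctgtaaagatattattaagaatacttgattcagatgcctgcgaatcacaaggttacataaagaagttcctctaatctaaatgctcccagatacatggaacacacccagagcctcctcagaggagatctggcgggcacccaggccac
The remaining matches were in the second Cyp11a1 window at position -28 and in the Lhcgr window at -122, both on the plus strand. A match describes letters in a window and shows no binding.

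With the main scaling, Leydig cell markers other than the members were mostly higher. Of 18 compared, 11 passed 2-fold upward (61.1%, beside 31.3% of all genes), 0 downward (beside 29.5%) and 7 neither way. Their median log2 ratio was 1.76, and 0.88 with spike-in scaling, under which Sult1e1 (0.87) and Cyb5a (0.95) lay within 2-fold. The steroid-making enzymes Hsd3b1 (0.48) and Hsd3b6 were among the 7. Which cells gave the signal of these markers was not tested. Vcam1 (3.30, median over probes 2.33), Ptgds (2.91) and Agt (2.60) were highest, and Igf1 (-0.64), Hsd3b6 (-0.49) and the prolactin receptor Prlr (-0.10) lowest. With spike-in scaling Igf1 (-1.52) and Hsd3b6 (-1.37) were past 2-fold lower. Summed over the list, the scaled signal was 32.7 times the array's 75th percentile in the busulphan library and 8.36 times in the control library. The same sum over the members on the array was 4.95 in the busulphan library and 4.42 in the control library. Most of this control sum came from Fdx1 (429), with a signal of 3670 there, against 1749 in the busulphan library. The probes of Fdx1 pointed opposite ways, so the near-equal sums do not show that the members as a set were level. In bulk preparations a change in the share of cells of a type and a change in RNA per cell cannot be told apart.

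The preparations were labelled as Sertoli cells, and both also held signal for markers of other testis cells, whose part in the member results was not tested. With the main scaling all 18 Sertoli markers compared were at least 2-fold higher (log2 ratios of 1.90 to 5.46, median 3.58), with a summed scaled signal of 216 in the busulphan library and 26.6 in the control library. Amh was at 0.81 with normexp, within 2-fold. Of 18 macrophage markers 13 were higher and 2 lower (median 3.01), with sums of 13.03 in the busulphan library and 63.7 in the control library. The sum and the median point opposite ways because Aif1 alone made up most of the control sum. Its signal was 1230 in the busulphan library, against 62716 in the control library, where it was saturated. With the main scaling all 13 haploid germ cell markers were at least 2-fold lower (median -5.44), with sums of 69.7 in the busulphan library and 675 in the control library, where 9 were saturated. With loess Prm1 (-0.86) and Ldhc (-0.38) lay within 2-fold, as did Prm1 with quantile normalization. Of 7 peritubular markers 3 were higher and 0 lower (median 0.90), none of the 3 past 2-fold higher with spike-in scaling. Of 13 endothelial markers 3 were higher and 3 lower (median -0.21). Among all genes compared, 31.3% were higher and 29.5% lower with the main scaling, beside 72.2% and 11.1% of the macrophage markers. The number of probes well above background was 12064 (79.3%) on the busulphan array and 12302 (80.9%) on the control array.

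**Figure D5:**
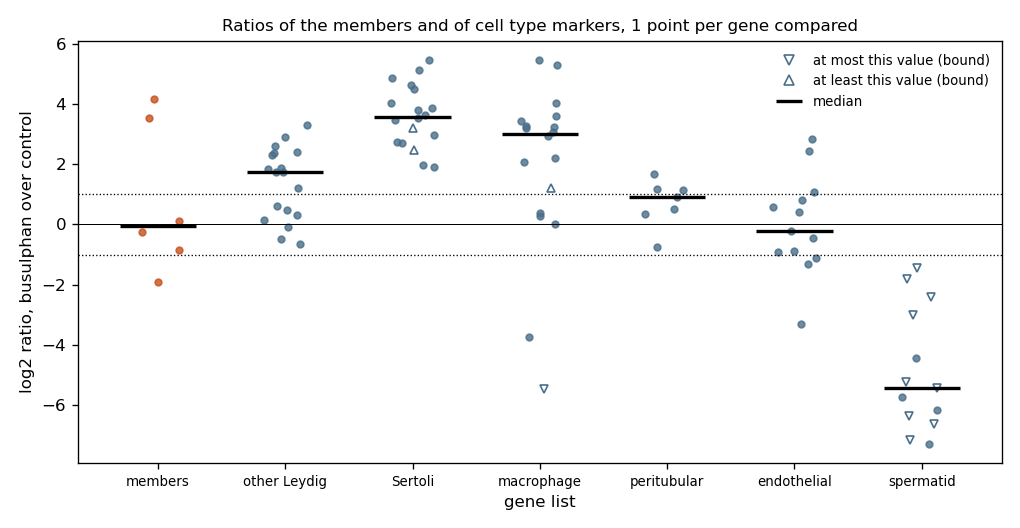
Log2 ratio, busulphan over control, of the 6 members compared and of markers of 6 testis cell types, 1 point per gene, with black bars for medians and open triangles for bounds. The members spread from -1.93 to 4.16, while the other Leydig markers lie between -0.64 and 3.30.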

How the data were processed

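The authors' intensity values were extracted with Agilent software (Feature Extraction 11.5.1.1). Spatial and multiplicative detrending and surrogates for dim spots were switched on, per the file headers. The deposited log2 table of the series has no stated scale. Its values are the log2 processed signals less a constant, 9.82 on the busulphan and 10.03 on the control array, so nothing was centred by gene (medians -2.77 and -2.94).

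Here, each array's log2 processed signals were set against its 75th percentile (905 on the busulphan and 1046 on the control array) over non-control probes. Ratios were then taken without 4 outlier probes. Kept were probes that exceeded background clearly on either array (12862 before outliers were left out), and a gene took its brightest probe. A probe dim on 1 array is given as a bound, for which the dim side stands at its own signal or the lowest one well above background there, whichever is higher. Saturated spots give bounds too. Bounds stand at their value in medians and counts. Names came from RefSeq accessions (GRCm38.p6) for 13300 probes and from the files for 1908. Since n = 1 per group, nothing was tested, and the number of arrays limits precision. Genes named are all members, all steroid-making genes compared, and the 3 highest and 3 lowest of each pathway list. Hsd17b4, Scarb1, Tspo, Nr5a1, Nr5a2, Gata4 and Sp1 were named outside this rule. A few genes chosen this way are not reported here. Members and lists were chosen with earlier results of these data known. The steps were tested on simulated data. Alternatives (15) used limma 3.58.1 in R 4.3.3 for normexp (offset 50), quantile and loess normalization. Figures and counts used Python 3.11.15.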

Additional observations from a re-analysis of the deposited data

How the results depend on the processing

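Star and Akr1b7 stayed at least 2-fold higher under all 12 alternatives that give a probe its ratio. Their log2 ratios were 2.66 to 3.72 for Star (2287), 2.84 to 3.90 for Star (3012) and 2.005 to 4.33 for Akr1b7. Alternatives for dim probes, saturated spots and bounds could not move the member probes compared, which were bright and unsaturated on both arrays. The deposited table holds the same signals less a constant, so only the other background correction and scalings bear on these calls. Hsd17b3 lay between -2.81 and -0.87, within 2-fold with normexp only. The count of lower members, 1, became 0 with normexp or a 4-fold rule, 2 with median scaling, no scaling or a 1.5-fold rule, and 3 with spike-in scaling. The members' median (-0.07) became -0.41 with loess, -0.95 with spike-ins, -0.27 without scaling and 0.26 by the median over probes. That of the other steroid-making genes (0.022) became -0.25 with loess, -0.86 with spike-ins, -0.19 without scaling, 0.25 without a filter on dim probes and 0.65 with probes bright on both arrays. That of the other Leydig markers (1.76) became 1.39 with normexp, 1.36 with loess, 0.88 with spike-ins and 1.55 without scaling. Of all genes, 1524 were higher and 4381 lower with spike-ins, and 1360 and 1674 at 4-fold. The median of the relatives of Akr1b7, Insl3 and Lhcgr (-1.10) reversed to 0.022 without a filter on dim probes. The causes were not tested. Signals near background limit Lhcgr, Akr1b7 in the control and Hsd17b3 in the busulphan library. No paired analysis was possible because each group has 1 array.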
